A study of Mus musculus with 8 samples.

Results

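Genes of amino acid carriers were compared between 2 fractions of endogenous CD8+ T cells, those that a magnetic column retained for high IL-18Rα and those that passed it. The 9 genes were chosen by name among the 47493 genes of the expression table. They encode carriers of neutral amino acids (*Slc43a1*), of glutamine and other small neutral amino acids (*Slc1a5*, *Slc38a1*, *Slc38a2*) and of cationic amino acids (*Slc7a1*, *Slc7a6*, *Slc7a7*). *Slc3a2* encodes a heavy chain that joins several carriers, and *Slc38a9* a lysosomal member of the SLC38 family that senses arginine. The cells came from inguinal lymph nodes and spleen of 4 female C57BL/6 mice, 6 to 8 weeks old at the start. Each mouse was taken to have given 1 IL-18Rα hi library and 1 flow-through library of the same number, which the labels do not state. All mice, and so both fractions, carried B16-F10 melanoma cells (200000 cells, day 0) and had received cyclophosphamide (300 mg/kg, day 3), 2000000 Pmel-1 cells (T cells with a transgenic receptor for a melanoma antigen, day 5), 10000 IU of IL-2 daily for 3 days and weekly anti-CD4 antibody (200 μg, from day 10). Tissues were taken on day 25, transferred Thy1.1+ cells were removed and no library comes from untreated mice. The flow-through is what the column did not hold, not a sorted IL-18Rα low population.

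T cells that begin to divide need more amino acids than they make, and the carriers in their membranes set how fast these enter. The CD98 heavy chain, the product of *Slc3a2*, brings several light chains of the SLC7 family to the cell surface, where the pair exchanges large neutral or cationic amino acids. ASCT2, encoded by *Slc1a5*, and the sodium-coupled carriers of the SLC38 family bring in glutamine, alanine and serine. Amino acids that reach the lysosome are sensed there, with the product of *Slc38a9* among the sensors, and activate the growth kinase complex mTORC1.

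Values are FPKM (fragments scaled to the length of the transcript and to all mapped fragments of the library) as the authors computed them, with mean ± SD of 4 libraries. Differences were tested with limma on log2(FPKM + 1) over the 12166 genes whose mean reached 1 FPKM, and called at a Benjamini-Hochberg adjusted p under 0.05. All 9 transporters passed the filter on low values. Depth was estimated at 14500000 to 17300000 fragments per library. *Il18r1*, which encodes IL-18Rα, ranged over 22.2 to 37.2 FPKM in flow-through libraries and 106.6 to 116.0 FPKM in IL-18Rα hi libraries, without overlap. The labelled cell type was checked with 8 CD8 T-cell identity genes, whose summed level was 2542 to 2724 FPKM in the IL-18Rα hi libraries and 2144 to 2548 FPKM in flow-through replicates 2 to 4. Flow-through replicate 1 stood apart at 1337 FPKM, with *Cd8a* at 179.2 FPKM and *Cd3e* at 123.2 FPKM. Libraries also held RNA of other cells. Flow-through libraries held erythroid markers at a sum of 1327 to 4539 FPKM, against 344.1 to 2134 in the IL-18Rα hi libraries. Granulocyte progenitor markers summed to 587.4 to 3424 and 567.4 to 3342 FPKM, and plasma-cell markers to 292.7 to 1236 and 531.8 to 1476 FPKM. For macrophage and monocyte markers the sums were 116.5 to 397.4 and 382.9 to 898.9 FPKM, and for B-cell markers, with *Cd79b* the highest at means of 20.2 and 24.8 FPKM, 22.2 to 61.3 and 28.0 to 72.0 FPKM. Of the markers tested, 5 of 7 for NK cells, 2 of 2 for CD4 T cells and 2 of 3 for γδ T cells were higher in the IL-18Rα hi fraction, against 14.1% of all genes. The paper lists *Ncr1*, *Klrb1c*, *Cd40lg* and *Blk* of these among genes raised in the IL-18Rα hi CD8 T cells. Whether their RNA came from those cells or from other cells was not tested. None of the markers for B cells, plasma cells and granulocyte progenitors passed. In the blocked fit 5 of 5 plasma-cell markers were higher, against 22.2% of all genes.

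Of the 9 transporters, 0 were higher and 1, *Slc38a2*, was lower in the IL-18Rα hi fraction. Over all genes tested, 14.1% were called higher and 13.7% lower, so the count for the transporters was not above that background. At an unadjusted limma p under 0.05 there were 3 such genes, *Slc38a2* and *Slc43a1* with negative and *Slc38a1* with positive differences. The share of all genes at this looser threshold is not given here, so these 3 cannot be set against a background. The median log2 fold change of the transporters was -0.045, against -0.018 for all genes tested. With the mouse as a block, *Slc43a1* joined *Slc38a2* among the lower genes, where 22.2% of all genes were called higher and 22.7% lower. After scaling to T-cell genes no transporter was called, against 4.29% of all genes higher and 7.62% lower. The summed FPKM of the 9 genes was 328.1 to 377.7 in the flow-through and 326.5 to 336.3 in the IL-18Rα hi libraries, and these ranges overlapped. The ranking of the genes by FPKM, which is a level per transcript length, was led by *Slc1a5* and *Slc3a2*, which together held most of the summed FPKM. In the IL-18Rα hi fraction *Slc1a5* took 35.9% ± 0.563 and *Slc3a2* 27.3% ± 2.64 of it, and in the flow-through 32.1% ± 3.33 and 28.4% ± 1.32.

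**Figure D1:**
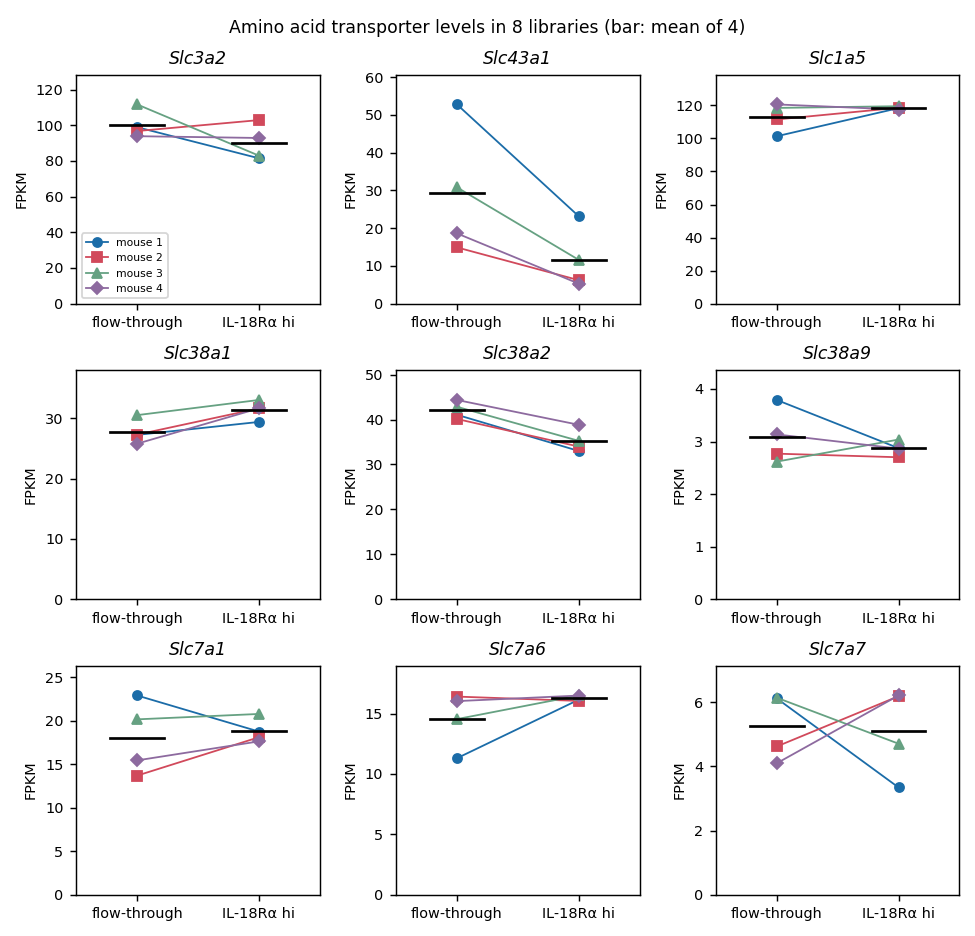
FPKM (vertical axes, from 0, a scale for each gene) of the 9 transporters in the flow-through and IL-18Rα hi library of each of the 4 mice, joined by a line, with a black bar at the mean of each fraction. *Slc43a1* and *Slc38a2* are lower at the IL-18Rα hi end of every line, *Slc38a1* is slightly higher there on every line, and the lines of the other genes cross or lie almost flat.

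*Slc38a2* encodes SNAT2, a sodium-coupled carrier of small neutral amino acids that cells are known to induce when amino acids run short. The gene lies on chromosome 15 (mm10, 96687392 to 96699730, minus strand). Its level was 41.1, 40.1, 42.8 and 44.4 FPKM in flow-through replicates 1 to 4, and 33.0, 34.0, 35.3 and 38.8 FPKM in IL-18Rα hi replicates 1 to 4. Every IL-18Rα hi library was thus below every flow-through library, a separation seen for 15.9% of all genes tested in this direction. The means were 42.1 ± 1.88 and 35.3 ± 2.55 FPKM, and the log2 fold change was -0.25 (SE 0.075, 95% interval -0.42 to -0.080, adjusted p = 0.0377 by limma). *Slc38a2* was lower in 4 of 4 mice, with log2 differences of -0.31, -0.23, -0.27 and -0.19 in mice 1 to 4. The call is close to the threshold and was lost without flow-through replicate 3 or 4 or IL-18Rα hi replicate 1, 2 or 3, where adjusted p ran from 0.0801 to 0.103 and the log2 fold change from -0.25 to -0.22. It was also lost after scaling each library to its T-cell identity genes (adjusted p = 0.0942). That scaling put the median of all genes tested at -0.32 on the log2 scale, and *Slc38a2* then lay -0.26 from this median. Across the 8 libraries r between *Slc38a2* and the mean of the erythroid markers described next was 0.341 (rho 0.429), and -0.0136 without the 2 libraries farthest from the median of that mean.

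*Slc43a1* showed the largest difference in size of the 9 genes. It encodes LAT3, a carrier of leucine and other branched-chain amino acids that works without the CD98 heavy chain, and lies on chromosome 2 (mm10, 84838850 to 84863594, plus strand). Its level was 52.7, 14.9, 30.8 and 18.6 FPKM in flow-through replicates 1 to 4. In IL-18Rα hi replicates 1 to 4 it was 23.1, 6.23, 11.6 and 5.31 FPKM. Mouse 1 was highest in both fractions, and its IL-18Rα hi library lay above 2 of the 4 flow-through libraries, so the fractions overlapped. Within each mouse the IL-18Rα hi library was the lower, with log2 differences of -1.15, -1.14, -1.34 and -1.64. The log2 fold change was -1.32 (SE 0.50, 95% interval -2.45 to -0.18, adjusted p = 0.0804 by limma), which did not pass. With the mouse as a block the same log2 fold change had an SE of 0.10 and passed (adjusted p = 0.000302 by limma), as it did in the 4 blocked fits that left out 1 mouse (adjusted p = 0.00065 to 0.00292), which were added after the values had been seen. Without a block it passed when IL-18Rα hi replicate 1 was left out (log2 fold change -1.70, adjusted p = 0.0302 by limma).

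Erythroid markers moved with *Slc43a1*. Of the 19 erythroid genes, 7 were lower in the IL-18Rα hi fraction and 15 were lower with the mouse as a block, against 13.7% and 22.7% of all genes, and none was at 0 in all libraries. Late genes of the lineage differed least, with *Hba-a1*, an alpha globin, at 228.6 and 185.8 FPKM, *Slc4a1*, the red-cell anion exchanger, at 24.8 and 22.2 FPKM, and *Hbb-bt*, a beta globin, at 51.0 and 61.6 FPKM in the flow-through and IL-18Rα hi means. *Car1*, carbonic anhydrase 1, had the highest mean of the list in the flow-through and its largest difference, at a mean of 881.6 ± 328.1 FPKM in flow-through libraries against 152.7 ± 80.8 FPKM in IL-18Rα hi libraries. The mean log2(FPKM + 1) of the erythroid list differed between the fractions by -1.08, -1.47, -1.13 and -1.64 in mice 1 to 4. Across the 8 libraries, which share mice and preparation, Pearson's r between *Slc43a1* and this mean was 0.988 (Spearman's rho 0.952). It was 0.982 without flow-through replicate 1 and 0.981 without the 2 libraries farthest from the median of the marker mean. With other marker lists r was of similar size but negative, at -0.976 for plasma cells, -0.955 for macrophages and monocytes, -0.946 for NK cells and -0.917 for γδ T cells. The erythroid list was thus not the only one with which *Slc43a1* varied. The protein-coding genes whose log2(FPKM + 1) over the 8 libraries was most like that of *Slc43a1* were *Icam4* (r = 0.996), *Blvrb* (0.994) and *Car2* (0.994). *Icam4* encodes a red-cell surface antigen, *Blvrb* a biliverdin reductase and *Car2* carbonic anhydrase 2. The cells had been treated with a lysis buffer for red cells before the fractions were separated. The part of erythroid RNA in the difference of *Slc43a1* was not tested. In bulk RNA, fewer cells of a type and less RNA per cell cannot be told apart.

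**Figure D2:**
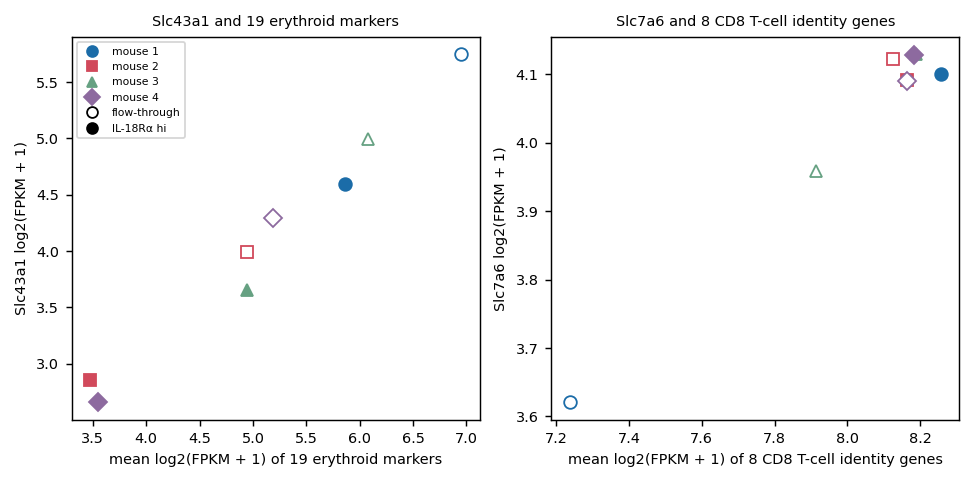
*Slc43a1* against the mean of 19 erythroid markers (left) and *Slc7a6* against the mean of 8 CD8 T-cell identity genes (right), all as log2(FPKM + 1), with 1 point per library, open for flow-through and filled for IL-18Rα hi, and shape and color for the mouse. The points for *Slc43a1* lie along a line over the whole range (r = 0.988), while for *Slc7a6* flow-through replicates 1 and 3 lie apart and the other 6 libraries form a cluster at the upper right.

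The sequences around the start sites of *Slc43a1* and *Slc38a2* are given here because these were the genes with the largest difference and with the call. They are RefSeq promoters (GRCm38.p6, the mm10 build), each with 250 bases before and 50 after a start site, and 7 of the 9 genes had one. Capitals mark the E-box CACGTG, to which MYC and related factors bind, searched on both strands along with TGATGNAA (the C/EBP-ATF response element) and AGATAA, the binding motif of GATA factors. These were found in 7.15%, 3.97% and 11.2% of all 32851 promoters of this length.
*Slc43a1* (chr2:84840073-84840372, plus strand): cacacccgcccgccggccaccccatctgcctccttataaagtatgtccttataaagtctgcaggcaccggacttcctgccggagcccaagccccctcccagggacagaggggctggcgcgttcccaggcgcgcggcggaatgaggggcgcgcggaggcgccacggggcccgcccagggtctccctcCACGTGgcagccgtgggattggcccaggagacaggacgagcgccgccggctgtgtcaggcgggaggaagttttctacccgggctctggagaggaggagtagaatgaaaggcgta
*Slc38a2* (chr15:96699679-96699978, minus strand): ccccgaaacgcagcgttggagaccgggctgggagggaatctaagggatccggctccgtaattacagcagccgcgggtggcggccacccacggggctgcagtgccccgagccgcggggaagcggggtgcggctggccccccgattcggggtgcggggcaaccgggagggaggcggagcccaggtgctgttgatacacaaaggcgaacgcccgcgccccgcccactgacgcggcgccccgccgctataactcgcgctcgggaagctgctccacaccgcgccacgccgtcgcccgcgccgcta
The *Slc43a1* window held 1 E-box, which starts at base -64 from the start site, and neither of the other motifs. The *Slc38a2* window held none of the 3 letter strings. A match of letters does not show binding, and the absence of one says nothing about the rest of the gene.

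*Slc3a2*, the CD98 heavy chain, was the second most abundant of the transporters in both fractions (chromosome 19, 8706882 to 8723369, minus strand). It was at 98.9, 96.7, 111.7 and 93.9 FPKM in flow-through replicates 1 to 4 and at 81.5, 102.9, 82.9 and 92.9 FPKM in the IL-18Rα hi replicates. The fractions overlapped, and *Slc3a2* was lower in 3 of 4 mice and higher in mouse 2. The log2 fold change was -0.16 (SE 0.096, 95% interval -0.38 to 0.063, adjusted p = 0.251 by limma), which did not pass. Over the 8 libraries the protein-coding genes most like it were *Atf6b* (r = 0.98), *1110038F14Rik* (0.949) and *Mib1* (0.932). For *Slc38a2* they were *Diexf* (0.986), *AA474331* (0.982) and *Tldc1* (0.978). These lists were drawn from 12166 genes over 8 points, and high values are common among so many.

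*Slc1a5*, which encodes the glutamine exchanger ASCT2, was the most abundant transporter in both fractions (chromosome 7, 16781340 to 16798274, plus strand). It was at 101.3, 111.5, 118.4 and 120.5 FPKM in flow-through replicates 1 to 4 and at 118.3, 118.5, 119.5 and 117.5 FPKM in the IL-18Rα hi replicates. The IL-18Rα hi libraries lay within a narrow band, with a coefficient of variation of 0.699%, against 7.68% in the flow-through, where replicate 1 was the lowest. The log2 fold change was 0.071 (SE 0.072, 95% interval -0.094 to 0.24, adjusted p = 0.487 by limma). Within every library of both fractions *Slc1a5* was above *Slc3a2*. Across libraries the ranges of the 2 genes overlapped in the flow-through and did not in the IL-18Rα hi fraction.

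*Slc38a1* encodes SNAT1, a close relative of SNAT2 that also carries glutamine, and lies near *Slc38a2* on chromosome 15 (96571418 to 96642913, minus strand). It was at 27.3, 27.3, 30.6 and 25.8 FPKM in flow-through replicates 1 to 4 and at 29.4, 31.7, 33.1 and 31.7 FPKM in the IL-18Rα hi replicates. It was higher in 4 of 4 mice, but the fractions overlapped and the log2 fold change of 0.18 (SE 0.076, 95% interval 0.0043 to 0.35) did not pass (adjusted p = 0.113 by limma, or 0.0672 with the mouse as a block). The sign of this difference turned under T-cell scaling (-0.15), where it lay 0.17 above the median of all genes.

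The ratio of 2 transporters within a library does not depend on how libraries are scaled, and 3 such ratios were compared. This holds for the ratios of FPKM printed here. The log2 differences and their permutation tests used FPKM + 1, so they can depend on scaling, most for genes of low level. *Slc38a1* was at 0.664, 0.681, 0.713 and 0.582 times the FPKM of *Slc38a2* in flow-through replicates 1 to 4. In IL-18Rα hi replicates 1 to 4 it was at 0.891, 0.932, 0.938 and 0.816 times that FPKM. The fractions did not overlap, and the ratio was higher in 4 of 4 mice. The means were 0.66 ± 0.0559 and 0.894 ± 0.0563, and the difference on the log2 scale was 0.43 (exact two-sided permutation p = 0.0286, the smallest that 70 arrangements of 4 against 4 allow, and 0.0429 after Benjamini-Hochberg adjustment over the 3 ratios). This permutation takes no account of the pairing by mouse. In these 4 mice the ratio moved toward *Slc38a1*, although *Slc38a2* remained the higher in 8 of 8 libraries.

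The ratio of *Slc1a5* to *Slc38a2* was 2.68 ± 0.145 in the flow-through (2.47 to 2.78) and 3.37 ± 0.245 in the IL-18Rα hi fraction (3.02 to 3.58). It was higher in 4 of 4 mice without overlap between the fractions (log2 difference 0.32, exact two-sided permutation p = 0.0286, adjusted 0.0429). Both ratios have *Slc38a2* as their denominator, so they are not independent of each other or of the difference in *Slc38a2*. The ratio of *Slc7a6* to *Slc7a7* was 2.92 ± 0.973 and 3.40 ± 1.04, and it was higher in 2 mice and lower in 2 (log2 difference 0.21, exact two-sided permutation p = 0.514). Sign flips within the 4 mice cannot give a p below 0.125, the value that both shifted ratios reached.

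**Figure D3:**
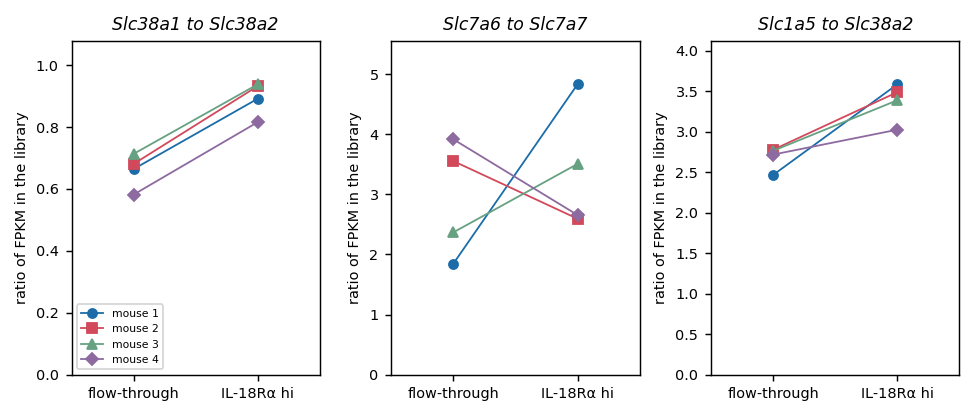
Ratio of the FPKM of 2 transporters within each library (vertical axes, from 0) for the flow-through and IL-18Rα hi library of each of the 4 mice, joined by a line. The ratios with *Slc38a2* as denominator are higher at the IL-18Rα hi end of all 4 lines, from 0.582 to 0.713 up to 0.816 to 0.938 for *Slc38a1*, while the lines for *Slc7a6* to *Slc7a7* cross.

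Among carriers of cationic amino acids, *Slc7a1* encodes CAT-1, the main arginine and lysine importer of most cells (chromosome 5, 148327410 to 148399904, minus strand). It was at 22.9, 13.7, 20.2 and 15.5 FPKM in flow-through replicates 1 to 4 and at 18.8, 18.1, 20.8 and 17.6 FPKM in the IL-18Rα hi replicates. The fractions overlapped widely (log2 fold change 0.081, SE 0.15, 95% interval -0.27 to 0.43, adjusted p = 0.717 by limma), and the sign turned on leaving out flow-through replicate 2 (-0.034) and on scaling to T-cell genes (-0.25).

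*Slc7a6* and *Slc7a7* encode light chains that join the CD98 heavy chain and exchange cationic for neutral amino acids. *Slc7a6* (chromosome 8, 106168857 to 106198706, plus strand) was at 11.3, 16.4, 14.5 and 16.0 FPKM in flow-through replicates 1 to 4. In the IL-18Rα hi replicates it was at 16.1, 16.0, 16.5 and 16.5 FPKM. The log2 fold change of 0.16 (SE 0.11) did not pass (adjusted p = 0.303 by limma), and the libraries with the lowest values, flow-through replicates 1 and 3, were also those with the lowest sums of T-cell identity genes. Pearson's r with the mean of these genes was 0.988 (Spearman's rho 0.738) over the 8 libraries, but -0.157 without those 2 libraries, so the relation rested on them.

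*Slc7a7* (chromosome 14, 54369442 to 54417780, minus strand), which is known from macrophages and kidney, was at 6.12, 4.62, 6.14 and 4.10 FPKM in flow-through replicates 1 to 4 and at 3.34, 6.19, 4.71 and 6.21 FPKM in the IL-18Rα hi replicates. It was higher in 2 mice and lower in the other 2 (log2 fold change -0.045, SE 0.19, 95% interval -0.48 to 0.39, adjusted p = 0.878 by limma). Of 10 macrophage and monocyte markers tested, 6 were higher in the IL-18Rα hi fraction, against 14.1% of all genes. *Lyz2* was at a mean of 197.1 ± 107.6 FPKM in the flow-through against 505.9 ± 221.9 FPKM in IL-18Rα hi libraries. Pearson's r between *Slc7a7* and the mean of these markers was 0.0795 (rho 0.381), and 0.405 without flow-through replicate 1. Exons of *Slc7a7* overlap those of *Oxa1l* on the opposite strand, and *Oxa1l* was at 33.9 to 43.6 FPKM, so the values of *Slc7a7* are uncertain if reads were assigned without strand.

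*Slc38a9*, the lysosomal arginine sensor (chromosome 13, 112660751 to 112738749, plus strand), was the least abundant, at 3.79, 2.77, 2.62 and 3.13 FPKM in flow-through replicates 1 to 4 and at 2.87, 2.70, 3.04 and 2.87 FPKM in the IL-18Rα hi replicates. The fractions overlapped (log2 fold change -0.068, SE 0.11, 95% interval -0.33 to 0.19, adjusted p = 0.679 by limma), and an antisense gene overlaps its exons.

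**Figure D4:**
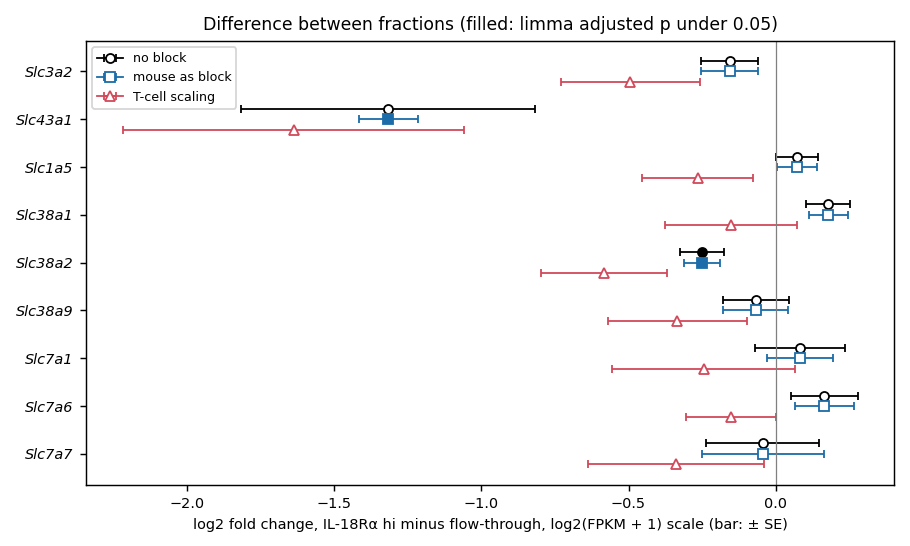
Log2 fold change (horizontal axis, IL-18Rα hi minus flow-through, ± SE) of the 9 transporters without a block, with the mouse as a block and after T-cell scaling, filled where the limma adjusted p was under 0.05. *Slc38a2* is filled in the first 2 fits and *Slc43a1* in the blocked fit alone, where its SE narrows from 0.50 to 0.10, and T-cell scaling moves all 9 genes to negative values, as it moves the median of all genes to -0.32.

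Other amino acid carriers were examined as a list of 36 names, of which 35 were in the table and 17 passed the filter on low values. In this list 1 gene was higher and 1 was lower, 5.88% each of those tested, against 14.1% and 13.7% of all genes. The median log2 fold change was 0.032. With the mouse as a block 5 were higher and 3 lower, where 22.2% and 22.7% of all genes were called. *Slc15a3*, a lysosomal carrier of histidine and small peptides, rose from a mean of 1.46 ± 0.319 FPKM to 4.11 ± 0.471 (log2 fold change 1.06, SE 0.13, adjusted p = 0.0015 by limma). Macrophage and monocyte markers were also higher in the IL-18Rα hi fraction (6 of 10 tested), and their part in this difference was not tested. *Slc7a4*, a relative of the cationic carriers, fell from a mean of 5.91 ± 3.12 FPKM to 2.33 ± 0.859 (log2 fold change -0.996, SE 0.30, adjusted p = 0.0377 by limma). The call of *Slc7a4* was lost in 5 of 8 fits that left out 1 library (flow-through replicate 3 or 4 or IL-18Rα hi replicate 2, 3 or 4, adjusted p up to 0.0963), without the filter (0.0788) and under T-cell scaling (0.0685). *Slc38a5*, a glutamine carrier that was singled out after its values were seen, was at 72.0, 17.6, 36.5 and 25.8 FPKM in flow-through replicates 1 to 4 and at 26.4, 4.06, 14.5 and 4.80 FPKM in the IL-18Rα hi replicates. Mouse 1 was highest and mouse 3 next in both fractions, as for *Slc43a1*. Its log2 fold change was -1.69 (adjusted p = 0.0678 by limma, and 0.000545 with the mouse as a block), and without a block it passed when IL-18Rα hi replicate 1 was left out (-2.15, adjusted p = 0.0277 by limma). Like *Slc43a1* it ran with the erythroid marker mean (r = 0.987, and 0.979 without flow-through replicate 1), whose part in the difference was not tested. *Slc7a11*, the cystine carrier, was under the filter at 0.0891 ± 0.0304 and 0.0805 ± 0.0678 FPKM, and 6 genes of the list were at 0 in all libraries.

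Among genes by which cells sense amino acids and pass the signal to mTORC1, 3 of 30 tested were higher and 5 lower. These shares, 10% and 16.7%, lay near the 14.1% and 13.7% of all genes, and *Mtor* itself was at 8.30 ± 0.145 and 8.61 ± 0.73 FPKM (log2 fold change 0.043, adjusted p = 0.712 by limma). *Gatsl3*, which encodes the cytosolic arginine sensor CASTOR1, rose from a mean of 8.03 ± 1.30 FPKM to 15.0 ± 1.02 (log2 fold change 0.84, SE 0.11, adjusted p = 0.0021 by limma). The other higher genes were *Rragc* (0.25) and *Lamtor5* (0.21), parts of the Rag and Ragulator complexes at the lysosome. Under T-cell scaling both calls were lost and the signs turned, to -0.081 and -0.13, and *Gatsl3* stayed positive but was not called (0.53, adjusted p = 0.057 by limma). *Sesn1*, a sestrin that restrains mTORC1, was lower (-0.39), as were *Seh1l* (-0.48) and *Wdr59* (-0.45) of the GATOR complex. Of these 6 genes, *Gatsl3* and *Sesn1* kept their calls in 8 of 8 fits that left out 1 library, *Wdr59* in 4, *Seh1l* and *Rragc* in 3 and *Lamtor5* in 1. *Seh1l* correlated with the erythroid marker mean at r = 0.892 over the 8 libraries, and the part of erythroid RNA in its difference was not tested. Nor was the part of macrophage or monocyte RNA in the higher genes.

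The amino acid response, in which GCN2 and ATF4 raise genes of amino acid synthesis and uptake during shortage, had called genes near the shares of all genes. Of 20 tested, 2 were higher (10%) and 3 lower (15%), under T-cell scaling none was called, and with the mouse as a block 4 were higher and 5 lower. *Atf4* was at 153.3 ± 10.2 and 137.6 ± 6.41 FPKM (log2 fold change -0.15, adjusted p = 0.151 by limma). *Ddit4* (0.81) and *Nupr1* (0.63) were higher, and *Eif4ebp1* (-0.82), *Aldh18a1* (-0.68) and *Shmt2* (-0.56) were lower. The lower genes ran with the erythroid marker mean (r = 0.855 to 0.885 over the 8 libraries), and its part in their differences was not tested. Nor was the part of macrophage or monocyte RNA in the higher genes. *Ddit4* was called in 8 of 8 fits that left out 1 library, *Nupr1* in 1, *Eif4ebp1* in 6, *Aldh18a1* in 5 and *Shmt2* in 2.

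Of 17 genes that use glutamine, branched-chain amino acids or arginine, 2 were higher (11.8%) and 5 lower (29.4%), against 14.1% and 13.7% of all genes. Under T-cell scaling 1 was higher and 2 lower, against 4.29% and 7.62% of all genes. *Bcat1*, which starts the breakdown of branched-chain amino acids in the cytosol, rose from a mean of 2.66 ± 0.407 FPKM to 6.53 ± 0.389 (log2 fold change 1.04, SE 0.11, adjusted p = 0.0007 by limma), and *Ass1* of arginine synthesis was higher too (0.27), although under T-cell scaling its call was lost and its sign turned (-0.062). *Srm*, spermidine synthase, fell from a mean of 143.0 ± 41.2 FPKM to 59.6 ± 7.73 (log2 fold change -1.21, SE 0.20, adjusted p = 0.0045 by limma), as did *Gls2* (-1.20) and *Oat* (-0.84). *Bcat1* and *Srm* were called in 8 of 8 fits that left out 1 library, *Ass1* and *Oat* in 6 and *Gls2* in 3. Flow-through replicate 1 was highest and replicate 3 next for *Srm*, *Gls2* and *Oat*, as for the erythroid marker mean, with which they correlated over the 8 libraries at r = 0.776, 0.884 and 0.887. The part of erythroid RNA in these differences was not tested, nor was that of macrophage or monocyte RNA in the higher genes.

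*Myc*, which is known to drive amino acid carriers in activated T cells, fell from a mean of 102.5 ± 4.70 FPKM to 42.2 ± 3.88 without overlap between the fractions (log2 fold change -1.26, SE 0.082, adjusted p = 2e-04 by limma, lower in 4 of 4 mice). In the same libraries *Slc38a2* was called lower (-0.25), and with the mouse as a block *Slc43a1* (-1.32) and *Slc38a5* (-1.69) were lower too. Carriers went both ways in that blocked fit, where 5 of the list of other amino acid carriers were higher and 3, with *Slc38a5* among them, were lower. *Slc43a1* and *Slc38a5* also ran with the erythroid marker mean (r = 0.988 and 0.987), and *Slc38a5* was singled out after its values were seen. *Slc1a5*, *Slc3a2* and *Slc7a1* did not pass the test, which does not show that they were unchanged. A link between *Myc* and the carriers was not tested. Over these 5 pathway lists 8 of 87 genes tested were higher and 16 lower, where 14.1% and 13.7% of all genes were called. With the mouse as a block the counts were 15 and 25, where 22.2% and 22.7% of all genes were called.

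**Figure D5:**
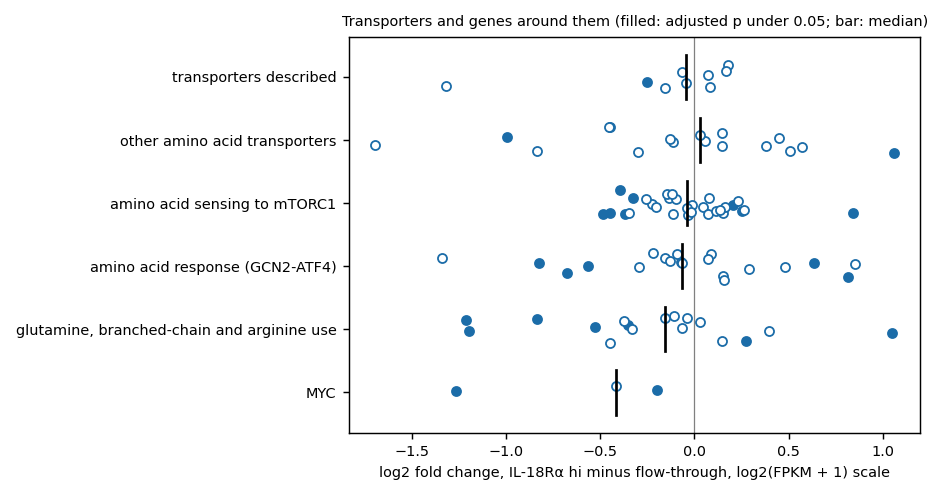
Log2 fold change (horizontal axis, IL-18Rα hi minus flow-through) of the 9 transporters and of the genes of 5 related lists that passed the filter on low values, 1 point per gene, filled where the limma adjusted p was under 0.05, with a bar at the median. The medians lie between -0.42 (the 3 genes of the MYC list) and 0.032 (other amino acid transporters), and points spread to both sides of 0 in every list but the MYC list.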

How the data were processed

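RNA was measured by poly(A) RNA sequencing (paired ends of 150 bases) in 8 libraries, 4 IL-18Rα hi and 4 flow-through. The labels gave each library its fraction and number. The deposited values are FPKM, which the authors computed with Cufflinks 2.1.1 after mapping to mm10 with TopHat, with correction for multi-mapped reads and fragment bias. The release of the annotation is not given in the sources used here. GENCODE M21, which holds 98.9% of the gene identifiers, gave the coordinates.

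FPKM does not return whole reads, so no count model was used. Depth was estimated from genes with 1 transcript of at least 1500 bases and under 0.2 FPKM. Log2(FPKM + 1) values of genes whose mean reached 1 FPKM were compared by limma (version 3.58.1, R 4.3.3), letting the variance follow the mean and using no block, after the same code had been tested on simulated data. A fold change on this scale understates that of genes of low level. P-values were adjusted by Benjamini-Hochberg over all genes tested. T-cell scaling divided each library by the geometric mean of *Cd3d*, *Cd3e*, *Cd3g*, *Cd247*, *Cd8a*, *Cd8b1*, *Lck* and *Cd2*. Under it 36.0% of calls were higher, against 50.8% without it.

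Replicate numbers were taken to pair the libraries, since the paper used 4 mice per group and took its control cells from the flow-through of the column. Deviations from the fraction means correlated at 0.308 to 0.66 between libraries of the same number. Between libraries of different numbers they correlated at -0.6 to 0.412, so the ranges overlapped. The transporters and gene lists were chosen with earlier results of these data known. Genes named from other lists were at most 3 in each direction with the largest log2 fold change among those called, besides *Atf4*, *Myc*, *Mtor* and *Slc7a11*, and 1 further gene chosen by name is not reported here. Likeness was ranked for *Slc3a2* and *Slc38a2*, and *Slc43a1* was added after its values were seen. It was also ranked for *Slc1a5*, *Slc38a1* and *Slc7a7*, whose lists are not given here. Of the 10 transporters chosen, 1 is not analysed here, nor are the 2 of 5 planned ratios that need it. Alternatives were another pseudocount, 2 other filters, the block, 2 scalings and leaving out each library.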

Additional observations from a re-analysis of the deposited data

How the results depend on the processing

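The number of lower transporters was 1 in the reported fit, 2 with the replicate block for the mouse, 0 under T-cell scaling, and 0 to 1 in the fits without 1 library. In fits chosen after seeing the data it was 1 to 2 with the block and without 1 mouse and 1 with the block under T-cell scaling. No transporter was higher under any of the alternatives run. The lost calls were those of *Slc38a2*, and the fits without 1 library have fewer samples.

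Among the transporters, signs turned for genes that were not called. Under T-cell scaling, with or without the block, *Slc1a5* was at -0.27, *Slc38a1* at -0.15, *Slc7a1* at -0.25 and *Slc7a6* at -0.15, where all genes had a median of -0.32. Among called genes of the pathway lists, *Rragc*, *Lamtor5* and *Ass1* turned negative there. *Slc7a1* ranged from -0.034 (without flow-through replicate 2) to 0.20 without 1 library and from -0.018 to 0.20 with the block and without 1 mouse. *Slc38a9* ranged from -0.12 to 0.012 and from -0.14 to 0.012, and *Slc7a7* from -0.14 to 0.11 and from -0.23 to 0.18, with 0.048 when mouse 3 was left out. *Slc43a1* passed without IL-18Rα hi replicate 1 (-1.70, limma adjusted p = 0.0302).

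The 3 ratios kept their direction. With pairing by mouse the log2 differences of *Slc38a1* (0.43) and *Slc1a5* (0.32) to *Slc38a2* could not pass 0.05 (exact sign-flip p = 0.125). The latter also missed it without any 1 of the flow-through libraries (exact permutation p = 0.0571), and ranged from 0.28 to 0.37 without 1 library.

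In the pathway lists, 8 genes were higher and 16 lower. The replicate block gave 15 and 25, T-cell scaling gave 2 and 4, both together 3 and 21, among genes of at least 5 FPKM 5 and 15, with no filter 8 and 9, without 1 library 4 to 11 and 4 to 17, and with the block and without 1 mouse 7 to 13 and 17 to 22. The block changed no other call of a transporter. The depth of FPKM values is only estimated, so no counting interval was given.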
